A study of Mus musculus with 19 samples.

Results

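The 34 genes described here encode the proteins of glucose uptake and glycolysis (17 genes, from the glucose transporters to lactate dehydrogenase) and other known targets of the hypoxia-inducible factors (17 genes). These members and the further gene lists below were chosen by name, with earlier results of these data known. Shares called among them, set beside all accessions, are therefore descriptions and not tests of the lists. Each symbol was looked up among the 24210 named genes of a table with 33862 RefSeq transcript accessions. Where a gene had several accessions, the accession with the highest mean count was used. Poly(A) RNA was sequenced from uncultured blood stem and progenitor cells sorted as lin-, Sca+ and cKit+ (LSK cells) from C57BL/6 mice, in 19 libraries. The 4 WT libraries (wt1 to wt4) came from untreated wild type mice. The IDH2-FLT3 mice carried Idh2 R140Q with Flt3-ITD, an internal tandem duplication of a cytokine receptor gene, had acute myeloid leukaemia, and received vehicle (3 libraries, V3, V3-2 and V9) or the inhibitor of mutant IDH2 AG-221 (4 libraries, AG1, AG12, AG13 and AG8). AG-221 was given by mouth 2 times a day for 4 to 5 weeks, at 100 mg/kg where it was the only agent and at 40 mg/kg in combination; the labels do not say which dose a library had. The TET2-FLT3 mice, labelled Tet2-/- with the same receptor lesion (spelled Flt3-IDT there), also had leukaemia and received vehicle (4 libraries, V1, V19, V5 and V5-2) or 5-azacytidine (5-Aza, a hypomethylating agent for which the series text also gives the name decitabine, 4 libraries, AZ10, AZ11, AZ16 and AZ17) at 5 mg/kg for 5 days of every 21-day cycle, over 4 cycles. Values below are listed in that order of libraries. The labels name no Cre driver, and nothing in them says that the libraries of a group came from separate animals, so that a p-value speaks only to the spread among the sequenced libraries, which may be technical.

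Glycolysis splits glucose into pyruvate and yields ATP without oxygen; lactate dehydrogenase then regenerates the cofactor it needs. Hypoxia-inducible factors (HIFs) are transcription factors whose alpha subunits are marked for destruction by prolyl hydroxylases (the Egln proteins), enzymes that need oxygen, iron and 2-oxoglutarate; without oxygen the factors persist and switch on most glycolysis genes, angiogenic factors and, as feedback, the Egln genes themselves. Blood stem cells are known to live in low oxygen and to rely on glycolysis, mutant IDH2 makes 2-hydroxyglutarate, which competes with 2-oxoglutarate, and TET2 is itself an enzyme of the class that uses 2-oxoglutarate.

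The libraries held 9635795 to 20383132 counts over accessions. V1 stood apart with the fewest accessions detected (12088, against up to 15509), and V3-2 and V5-2 with the largest totals; the column headers of V3-2 and V5-2 share a number with V3 and V5, and whether each pair came from 1 animal was not given. Tet2 was counted at 117 to 145 CPM (counts scaled to a library of 1000000 counts) in the WT libraries, 58.7 to 156 in the TET2-FLT3 vehicle libraries and 36.4 to 107 with 5-Aza; the count covers the whole transcript and the labels do not give the deleted part, so it checks no label. Ly6a (which encodes Sca-1) was at 0 in every library and Kit had a mean of 0.211 counts, but both have several accessions, a class that held only 2.15% to 3.40% of the counts of any library; the sort could therefore not be checked by its own markers. The summed level of 10 listed stem and LSK markers was 803 to 1281 CPM in WT, 42.2 to 152 in IDH2-FLT3 vehicle and 327 to 574 with AG-221; in the TET2-FLT3 line it was 228 to 448 for vehicle and 447 to 786 for 5-Aza. Of its 7 members tested, 5 fell in IDH2-FLT3 vehicle against WT and 3 in TET2-FLT3 vehicle against WT. The 8 listed markers of granulocyte and monocyte progenitors summed to 2268 to 13398 CPM in WT, 20571 to 109161 in IDH2-FLT3 vehicle and 7347 to 19785 with AG-221; in the TET2-FLT3 line they summed to 6265 to 10996 for vehicle and 5682 to 6960 for 5-Aza. In these bulk libraries, fewer cells of a type and less RNA per cell cannot be told apart.

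The same limit of counting applied to the glycolysis and hypoxia genes. Of the 22 members with 1 accession, 19 had a mean count over 100, against 1 of the 12 members with several accessions (Pkm, pyruvate kinase). Hk1, Pfkp, Pfkm, Aldoa, Aldoc, Gapdh, Ldha, Vegfa, P4ha2, Kdm3a, Mxi1 and Pkm belong to this class, and their levels are uncertain. Vegfa, the angiogenic growth factor, was at 0 in all 19 libraries over 9 accessions, and no statement on it is possible. Pgk1, Pgam1, Tpi1, Gapdh and Eno1 also have near-identical pseudogene copies that could take or give reads. After a filter on low counts 27 members were tested; Aldoc, Eno1, Vegfa, P4ha2, Kdm3a, Mxi1 and Adm were not.

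Promoter windows of 250 bases before the transcript start were available for 31 of the 34 members (RefSeq, build GRCm38.p6, while the authors' files use mm9). The core of the hypoxia response element was searched as ACGTG on both strands; it overlaps the E-box CACGTG. It was found in 10 of 27 windows of glycolysis members and 12 of 21 windows of hypoxia members, and in 16.6% of all 32851 windows of the table. The 5 windows printed belong to members on which the results below turn; each runs 5′ to 3′ on the gene's strand, and capitals mark the core or its reverse complement CACGT. The window of Gpi1 lay at chr7:34230337-34230586 on the minus strand and held no core, that of Pgk1 at chrX:106186850-106187099 on the plus strand held 2, and those of Pgam1 (chr19:41911621-41911870, plus strand), Egln3 (chr12:54203875-54204124, minus strand) and Ero1l (chr14:45318573-45318822, minus strand) held 1 each.
Gpi1: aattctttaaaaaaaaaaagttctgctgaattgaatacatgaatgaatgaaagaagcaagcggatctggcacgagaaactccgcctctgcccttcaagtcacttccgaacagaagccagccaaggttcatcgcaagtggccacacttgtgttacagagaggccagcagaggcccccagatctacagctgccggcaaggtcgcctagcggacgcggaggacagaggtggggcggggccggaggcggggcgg
Pgk1: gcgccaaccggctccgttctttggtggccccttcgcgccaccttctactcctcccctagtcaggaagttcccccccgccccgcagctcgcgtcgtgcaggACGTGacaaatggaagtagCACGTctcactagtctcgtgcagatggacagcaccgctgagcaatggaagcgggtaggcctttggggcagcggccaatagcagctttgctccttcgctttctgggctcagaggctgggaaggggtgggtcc
Pgam1: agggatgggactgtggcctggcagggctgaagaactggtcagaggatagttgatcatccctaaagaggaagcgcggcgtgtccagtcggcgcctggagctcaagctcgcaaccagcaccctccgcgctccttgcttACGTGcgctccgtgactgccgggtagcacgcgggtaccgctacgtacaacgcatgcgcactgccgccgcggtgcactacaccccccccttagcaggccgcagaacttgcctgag
Egln3: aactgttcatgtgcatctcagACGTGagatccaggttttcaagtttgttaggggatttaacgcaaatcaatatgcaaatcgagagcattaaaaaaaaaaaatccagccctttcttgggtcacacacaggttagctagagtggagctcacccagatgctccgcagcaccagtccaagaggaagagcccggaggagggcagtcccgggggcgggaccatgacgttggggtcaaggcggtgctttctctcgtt
Ero1l: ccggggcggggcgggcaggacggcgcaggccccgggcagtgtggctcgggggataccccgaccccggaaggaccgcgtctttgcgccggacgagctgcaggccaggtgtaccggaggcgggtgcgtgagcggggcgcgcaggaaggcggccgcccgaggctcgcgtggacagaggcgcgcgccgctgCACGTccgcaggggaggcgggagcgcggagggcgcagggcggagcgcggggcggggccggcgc
A match is a description of these letters and was not tested as a binding site.

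Compared with WT, the IDH2-FLT3 vehicle cells had more RNA of hexokinase 2, glucose-6-phosphate isomerase, phosphoglycerate mutase, pyruvate kinase and Pfkp. They had less RNA of the transporter Slc2a3. The calls of pyruvate kinase and Pfkp were each lost without wt1, wt3, wt4, V3 or V3-2, and that of Slc2a3 without any 1 of the 7 libraries. Of 27 members tested, 8 rose and 2 fell, against 20.5% of all 11830 accessions called in either direction (10.1% higher and 10.4% lower) at an adjusted p under 0.05 (edgeR quasi-likelihood test). The glycolysis genes accounted for 5 of the rises and 1 of the falls among 15 tested, with a median log2 fold change of 0.91 beside 0.025 over all accessions tested. Of the 12 hypoxia targets tested, 3 rose (Egln3, Ero1l and P4ha1) and 1 fell (Ndrg1), with a median of -0.014. The libraries of the groups did not overlap for 14 of the 27 members, against 37.1% of all accessions. Over the same groups all 8 granulocyte and monocyte progenitor markers rose, 5 of 7 stem markers fell, all 6 erythroid and all 6 B cell markers tested fell, 4 of 6 T and NK cell markers fell, 3 of 7 mature neutrophil markers rose and 5 of 15 cell cycle genes rose; their part in the members' change was not tested.

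The count for IDH2-FLT3 vehicle against WT was 5 without V3 and 5 without V3-2, and 11 when V1, V3-2 and V5-2 were all left out. Over all accessions these fits called 1261 of 12399, 1486 of 12177 and 2449 of 12044. It also depended on scaling. With library totals in place of the trimmed mean of M-values (TMM) factors, 4 members rose and 2 fell, and on log2(FPKM + 1) 3 rose and 2 fell. Over all accessions the main fit called 1195 higher and 1233 lower, library totals 587 and 1669, and log2(FPKM + 1) 560 and 2153, with the median of all accessions at -0.24 and -0.20 in place of 0.025. With DESeq2 8 members rose and 2 fell, against 1388 and 1623 accessions over all. With limma-voom 10 rose and 3 fell, against 1808 and 1641 over all. Only Gpi1, Pgam1 and Ndrg1 among the 10 calls of the main fit were kept under every alternative and every left-out library.

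In TET2-FLT3 vehicle cells Tpi1 and Pgk1 of glycolysis and Egln3, P4ha1 and Ddit4 of the hypoxia targets rose against WT. These were 5 of 27 members, against 10.1% of all accessions called in either direction (4.43% higher and 5.71% lower), and no member fell. The libraries of the groups did not overlap for 7 of the 27, against 18.5% of all accessions. The median log2 fold change was 0.44 for the 15 glycolysis members and 0.39 for the 12 hypoxia targets, beside 0.071 over all accessions; on log2(FPKM + 0.1) the glycolysis median turned to -0.061. Without V1, V3-2 and V5-2 the count was 2 (Pgk1 and Egln3), where 440 of 12044 accessions were called. It was 2 without wt1, 1 without wt3, 2 without wt4 and 3 without V1. Over all accessions these fits called 638 of 11748, 563 of 11755, 503 of 11715 and 866 of 11810. By library, the median of the glycolysis members relative to the WT mean was -0.43 in V1, -0.20 in V19, 0.71 in V5 and 0.84 in V5-2, and that of the hypoxia targets was 0.65, 0.30, 0.13 and 0.18. The 4 libraries thus lay on both sides of the WT mean for glycolysis. Over the same groups 3 of 7 stem markers fell, all 6 erythroid and all 6 B cell markers tested fell, 2 of 6 T and NK cell markers fell, 1 of 8 granulocyte and monocyte progenitor markers rose and 1 of 15 cell cycle genes rose; their part was not tested. Both comparisons with WT use the same 4 WT libraries. The median over all accessions moved to -0.14 with library totals and to -0.18 on log2(FPKM + 1), where 304 accessions were called higher and 1580 lower, against 524 and 675 in the main fit.

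**Figure D1:**
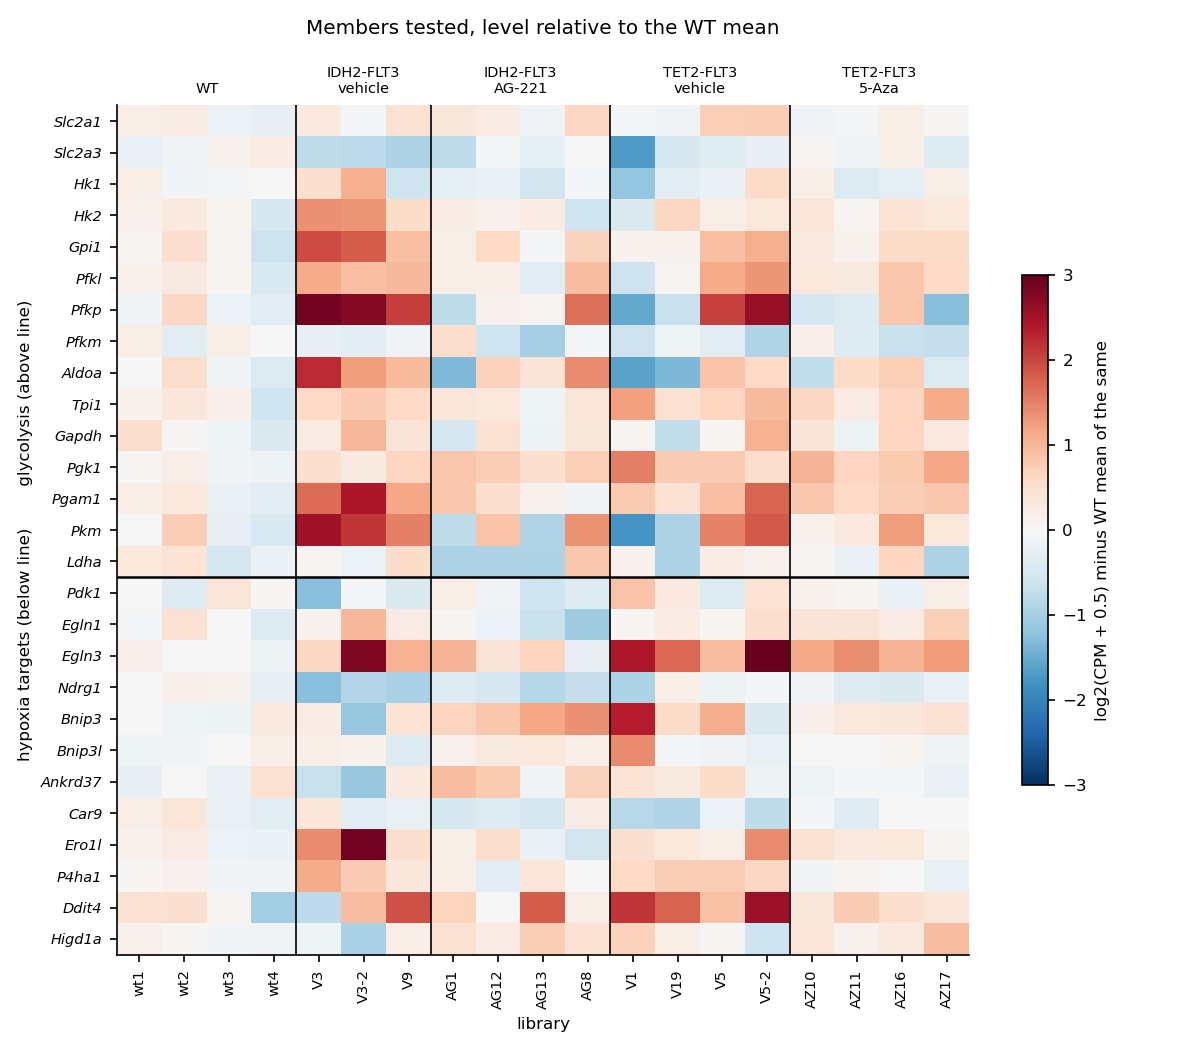
Level of each of the 27 members tested in each of the 19 libraries, as log2(CPM + 0.5) minus the mean of the WT libraries on the same scale (colour, from -3 in blue to 3 in red). Rows are genes, with glycolysis above and hypoxia targets below the line, and columns are libraries in their groups; Gpi1, Pgam1 and Pkm are red in all 3 IDH2-FLT3 vehicle libraries, and Egln3 in all 8 TET2-FLT3 libraries.

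With AG-221, 6 of the 27 members fell against IDH2-FLT3 vehicle and none rose, against 9.68% of all accessions called in either direction (4.39% higher and 5.29% lower). The 6 were Hk2, Gpi1 and Pgam1 of glycolysis and Egln1, Ero1l and P4ha1 of the hypoxia targets. The median of the glycolysis members was -0.88 and that of the hypoxia targets 0.011, beside -0.00023 over all accessions. The AG-221 and vehicle libraries did not overlap for 11 of the 27, against 23.8% of all accessions. Over the same groups 5 of 8 granulocyte and monocyte progenitor markers fell, 1 of 15 cell cycle genes fell, and 4 of 7 stem, 4 of 6 T and NK cell, 1 of 6 erythroid and 1 of 6 B cell markers rose; their part was not tested.

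These 6 falls rest on few libraries. The count was 1 without V3, 0 without V3-2 and 1 without V1, V3-2 and V5-2. Over all accessions these fits called 97 of 12399, 110 of 12177 and 716 of 12044. A fit of the AG-221 and vehicle libraries alone called none of 10681 accessions. DESeq2 called 1 member higher and 7 lower, against 1038 and 1070 accessions over all. Limma-voom also called 1 higher and 7 lower, against 755 and 1077 over all. On log2(FPKM + 1), 3 members were called higher and 2 lower, with 924 accessions called higher and 312 lower over all, against 519 and 626 in the main fit; with library totals 3 members fell and the split over all was 665 against 285. Against WT, no member of the AG-221 group passed in the edgeR fit, where 2.71% of all accessions did (1.04% higher and 1.67% lower). At an unadjusted p under 0.05 there were 3 of the 27 members, against 1524 of all 11830 accessions. DESeq2 called 0 members, against 589 accessions over all, and limma-voom 5, against 2131. Leaving out V1, V3-2 and V5-2 gave 3 members, against 663 of 12044 accessions. The AG-221 and WT libraries did not overlap for 4 of the 27, against 15.8% of all accessions.

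With 5-Aza, no member passed against TET2-FLT3 vehicle in the edgeR test, where 1.88% of all accessions did (0.431% higher and 1.45% lower). At an unadjusted p under 0.05 there were 7 of the 27 members, 2 higher and 5 lower, against 1482 of all 11830 accessions. DESeq2 called 1 member, against 462 accessions over all, and limma-voom 0, against 230. The medians were -0.030 for glycolysis members and -0.41 for hypoxia targets, beside -0.051 over all accessions. The groups did not overlap for 2 of the 27 (P4ha1 and Ddit4), against 7.09% of all accessions. Over the same groups 4 of 6 erythroid, 1 of 7 stem and 1 of 6 B cell markers rose; their part was not tested. Against WT 1 member, Pgk1, passed, where 1.72% of all accessions did (0.617% higher and 1.1% lower), and the groups did not overlap for 3 of the 27, against 25% of all accessions. This call was lost when any 1 of the 8 libraries was left out.

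**Figure D2:**
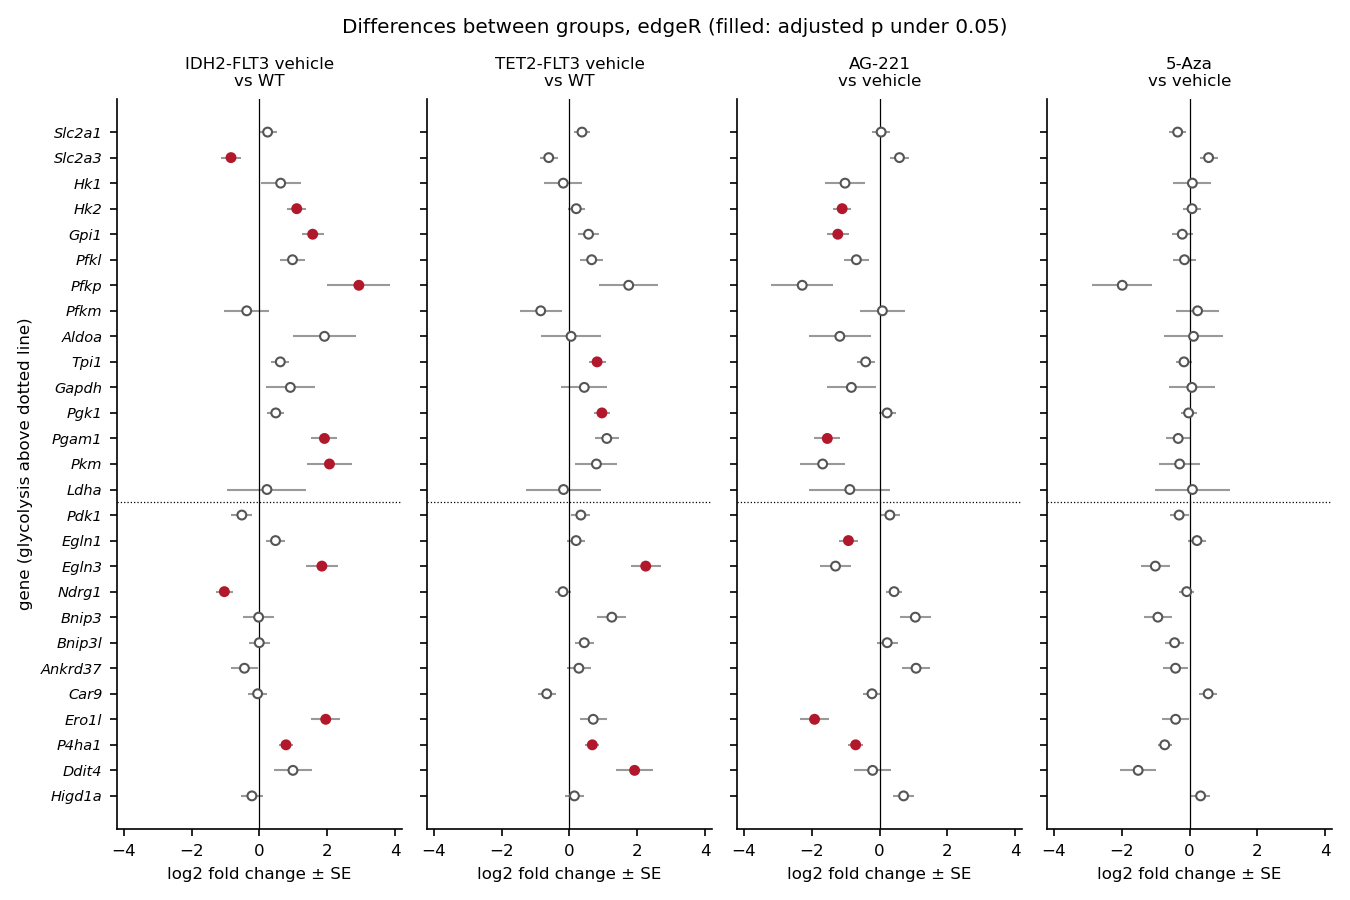
Log2 fold change ± SE (x axis) of each of the 27 members tested (y axis) in 4 comparisons, from the edgeR fit; filled points have an adjusted p under 0.05. Filled points number 10, 5, 6 and 0 from left to right, and those of the AG-221 panel all lie below 0.

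Neither glucose transporter among the members passed as higher in any group. Slc2a3 (GLUT3, a high-affinity transporter) was at 75.0, 79.9, 92.7 and 101 CPM in WT, 50.8, 50.2 and 45.1 in IDH2-FLT3 vehicle, 51.2, 83.8, 71.3 and 86.6 with AG-221, 26.2, 61.4, 67.05 and 73.1 in TET2-FLT3 vehicle and 89.4, 81.5, 99.9 and 65.6 with 5-Aza. All 3 IDH2-FLT3 vehicle libraries lay below all WT and all AG-221 libraries. It fell in IDH2-FLT3 vehicle against WT (log2 fold change -0.84 ± 0.29, adjusted p = 0.0449), a call lost when any 1 of the 7 libraries was left out, and its difference with AG-221 was 0.59 ± 0.29 (adjusted p = 0.175). The TET2-FLT3 vehicle libraries also lay below the WT libraries (-0.61 ± 0.26, adjusted p = 0.139). Slc2a1 (GLUT1, the transporter best known as a HIF target) was at 43.1, 43.9, 33.6 and 31.8 CPM in WT, 46.5, 36.3 and 52.4 in IDH2-FLT3 vehicle, 47.9, 44.5, 35.0 and 58.7 with AG-221, 36.4, 34.7, 61.9 and 63.5 in TET2-FLT3 vehicle and 35.7, 37.0, 42.9 and 38.5 with 5-Aza. All its groups overlapped, and its 95% interval against WT was -0.32 to 0.81 in IDH2-FLT3 vehicle and -0.16 to 0.89 in TET2-FLT3 vehicle on the log2 scale.

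Hexokinases trap glucose in the cell by phosphorylation. Hk2, the inducible form, was at 81.1, 90.9, 78.5 and 52.9 CPM in WT, 193, 186 and 108 in IDH2-FLT3 vehicle, 86.4, 81.0, 86.6 and 49.0 with AG-221, 55.1, 114, 86.0 and 92.9 in TET2-FLT3 vehicle and 95.9, 78.6, 98.6 and 93.2 with 5-Aza. V3 and V3-2 were the highest of all libraries, and the 3 vehicle libraries lay above all WT and AG-221 libraries. Hk2 was 2.14-fold higher in IDH2-FLT3 vehicle than in WT (log2 fold change 1.10 ± 0.28, adjusted p = 0.00874) and fell with AG-221 against vehicle (log2 fold change -1.10 ± 0.28, adjusted p = 0.022). Without V3 the adjusted p against WT was 0.0505, and the AG-221 call was lost without V3 or V3-2. Hk1, the constitutive form, was counted at 19, 15, 14 and 15 reads in WT, 23, 65 and 8 in IDH2-FLT3 vehicle, 9, 12, 7 and 15 with AG-221, 2, 9, 15 and 50 in TET2-FLT3 vehicle and 18, 10, 12 and 16 with 5-Aza; so few reads leave it uncertain (interval against WT -0.64 to 1.89 in IDH2-FLT3 vehicle).

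Gpi1, the isomerase that turns glucose-6-phosphate into fructose-6-phosphate, differed from WT in the IDH2-FLT3 vehicle group under every alternative. It was at 338, 450.0, 330.3 and 204 CPM in WT, 1237, 1117 and 591 in IDH2-FLT3 vehicle, 359, 486, 312 and 516 with AG-221, 344, 339.7, 598 and 669.7 in TET2-FLT3 vehicle and 388, 351, 473.6 and 468.1 with 5-Aza. The IDH2-FLT3 vehicle libraries lay above all WT and AG-221 libraries and overlapped the TET2-FLT3 vehicle libraries. Gpi1 was 2.97-fold higher in IDH2-FLT3 vehicle than in WT (log2 fold change 1.57 ± 0.33, adjusted p = 0.00268), and its adjusted p was at most 0.0237 over all left-out libraries and 0.0137 over the other alternatives. With AG-221 it fell against vehicle (log2 fold change -1.23 ± 0.33, adjusted p = 0.027), a call that was lost without V3, V3-2, AG1 or AG13. In TET2-FLT3 vehicle the difference from WT was 0.56 ± 0.31 (adjusted p = 0.242).

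Phosphofructokinase commits glucose to glycolysis. Its liver-type subunit gene Pfkl was at 131, 145, 126 and 87.4 CPM in WT, 261, 224 and 236 in IDH2-FLT3 vehicle, 135, 138, 96.9 and 229 with AG-221, 78.0, 126, 262 and 303 in TET2-FLT3 vehicle and 151, 144, 215 and 183 with 5-Aza. The 3 IDH2-FLT3 vehicle libraries lay above all WT libraries, but the difference of 0.98 ± 0.36 missed the threshold (adjusted p = 0.0603). Pfkp, the platelet-type subunit and one of the under-counted genes, was at 1.23, 2.34, 1.16 and 0.967 CPM in WT, 13.3, 12.1 and 7.38 in IDH2-FLT3 vehicle, 0.604, 1.52, 1.47 and 5.31 with AG-221, 0.136, 0.672, 7.16 and 10.9 in TET2-FLT3 vehicle and 0.809, 0.889, 2.81 and 0.271 with 5-Aza. Within TET2-FLT3 vehicle V5 and V5-2 were high and V1 and V19 low. Pfkp rose in IDH2-FLT3 vehicle against WT (log2 fold change 2.93 ± 0.93, adjusted p = 0.0311), a call lost without wt1, wt3, wt4, V3 or V3-2. It averaged 10.9 ± 3.14 CPM (SD, n = 3) in IDH2-FLT3 vehicle and 2.22 ± 2.10 (n = 4) with AG-221. The AG-221 libraries all lay below the vehicle libraries, but the difference did not pass in the edgeR fit. Pfkm, the muscle-type subunit, and Aldoa, of the aldolase that cleaves the sugar, averaged 0.508 to 0.909 and 1.03 to 4.02 CPM over the groups and did not pass in the edgeR fit; limma-voom called Aldoa higher in IDH2-FLT3 vehicle than in WT (adjusted p = 0.0314).

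Triose phosphate isomerase (Tpi1) interconverts the products of aldolase. Tpi1 was at 235, 279, 244 and 145 CPM in WT, 333, 371 and 333 in IDH2-FLT3 vehicle, 282, 275, 201 and 284 with AG-221, 515, 301, 346 and 425 in TET2-FLT3 vehicle and 339, 260.2, 343 and 472 with 5-Aza. Both vehicle groups lay above all WT libraries. It rose in TET2-FLT3 vehicle against WT (log2 fold change 0.81 ± 0.25, adjusted p = 0.0417), with an adjusted p of 0.284 without V1, V3-2 and V5-2. This call held under 5 of 12 other settings and was also lost without wt1, wt3, wt4, V1 or V5-2. The difference of Tpi1 in IDH2-FLT3 vehicle was 0.62 ± 0.27 (adjusted p = 0.104). Per transcript length, among the members with 1 accession, Tpi1 had the highest mean in WT, at 158 ± 33.1 FPKM (fragments per kilobase and library size; mean ± SD, n = 4), with Gpi1 at 128 ± 33.6 and Ndrg1 at 110.1 ± 7.24; the spread of Tpi1 and Gpi1 overlapped, and Gapdh, Aldoa, Ldha and Pkm cannot be ranked because of their counting. Gapdh was counted at 12, 7, 5 and 3 reads in WT and at most 38 reads in any library and passed under no setting.

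Pgk1 and Pgam1 act late in the pathway, where ATP is made. Pgk1, phosphoglycerate kinase, was at 22.5, 25.2, 20.7 and 19.8 CPM in WT, 31.0, 26.8 and 34.7 in IDH2-FLT3 vehicle, 39.4, 36.8, 31.2 and 36.6 with AG-221, 64.0, 37.9, 37.9 and 31.9 in TET2-FLT3 vehicle and 45.2, 34.7, 38.4 and 49.6 with 5-Aza. Every leukaemic library lay above every WT library, and V1 was the highest. Pgk1 rose in TET2-FLT3 vehicle (log2 fold change 0.96 ± 0.24, adjusted p = 0.015) and with 5-Aza (log2 fold change 0.93 ± 0.24, adjusted p = 0.0474) against WT, while the differences in IDH2-FLT3 vehicle (0.48 ± 0.25, adjusted p = 0.178) and with AG-221 (0.71 ± 0.23, adjusted p = 0.139) did not pass. Its promoter window above holds 2 of the searched cores.

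Pgam1, phosphoglycerate mutase, was at 6.28, 6.79, 4.62 and 4.19 CPM in WT, 18.1, 31.3 and 12.6 in IDH2-FLT3 vehicle, 9.76, 7.66, 5.96 and 5.08 with AG-221, 9.68, 7.49, 10.5 and 19.2 in TET2-FLT3 vehicle and 9.79, 8.33, 9.26 and 9.83 with 5-Aza. V3-2 and V5-2 were the highest of their groups, and all libraries of both vehicle groups lay above all WT libraries. Pgam1 was 3.78-fold higher in IDH2-FLT3 vehicle than in WT (log2 fold change 1.92 ± 0.38, adjusted p = 0.00189) and fell with AG-221 against vehicle (log2 fold change -1.54 ± 0.38, adjusted p = 0.0214). The first call held under every alternative and left-out library; the second was lost without V3 or V3-2. In TET2-FLT3 vehicle the difference from WT was 1.10 ± 0.36 (adjusted p = 0.0547).

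Pyruvate kinase and lactate dehydrogenase close the pathway. Pkm was at 21.1, 35.7, 17.8 and 15.4 CPM in WT, 125, 95.7 and 62.0 in IDH2-FLT3 vehicle, 12.3, 39.1, 11.2 and 54.8 with AG-221, 5.86, 10.9, 61.0 and 77.3 in TET2-FLT3 vehicle and 22.8, 26.4, 51.4 and 26.6 with 5-Aza. The AG-221 and TET2-FLT3 vehicle groups each split into low and high libraries, AG1 and AG13 against AG12 and AG8, and V1 and V19 against V5 and V5-2. Pkm rose in IDH2-FLT3 vehicle against WT (log2 fold change 2.07 ± 0.67, adjusted p = 0.0332), a call lost without wt1, wt3, wt4, V3 or V3-2. It averaged 94.1 ± 31.4 CPM (SD, n = 3) in IDH2-FLT3 vehicle and 29.3 ± 21.3 (n = 4) with AG-221. All AG-221 libraries lay below all vehicle libraries, but the difference did not pass in the edgeR fit. Ldha, counted on 1 of its 3 accessions, had 9, 10, 2 and 4 reads in WT, 6, 7 and 11 in IDH2-FLT3 vehicle, 0, 0, 0 and 15 with AG-221, 4, 0, 9 and 13 in TET2-FLT3 vehicle and 6, 4, 13 and 0 with 5-Aza, and did not pass in the edgeR fit; limma-voom called it lower with AG-221 than in WT (adjusted p = 0.0163), on these few reads.

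**Figure D3:**
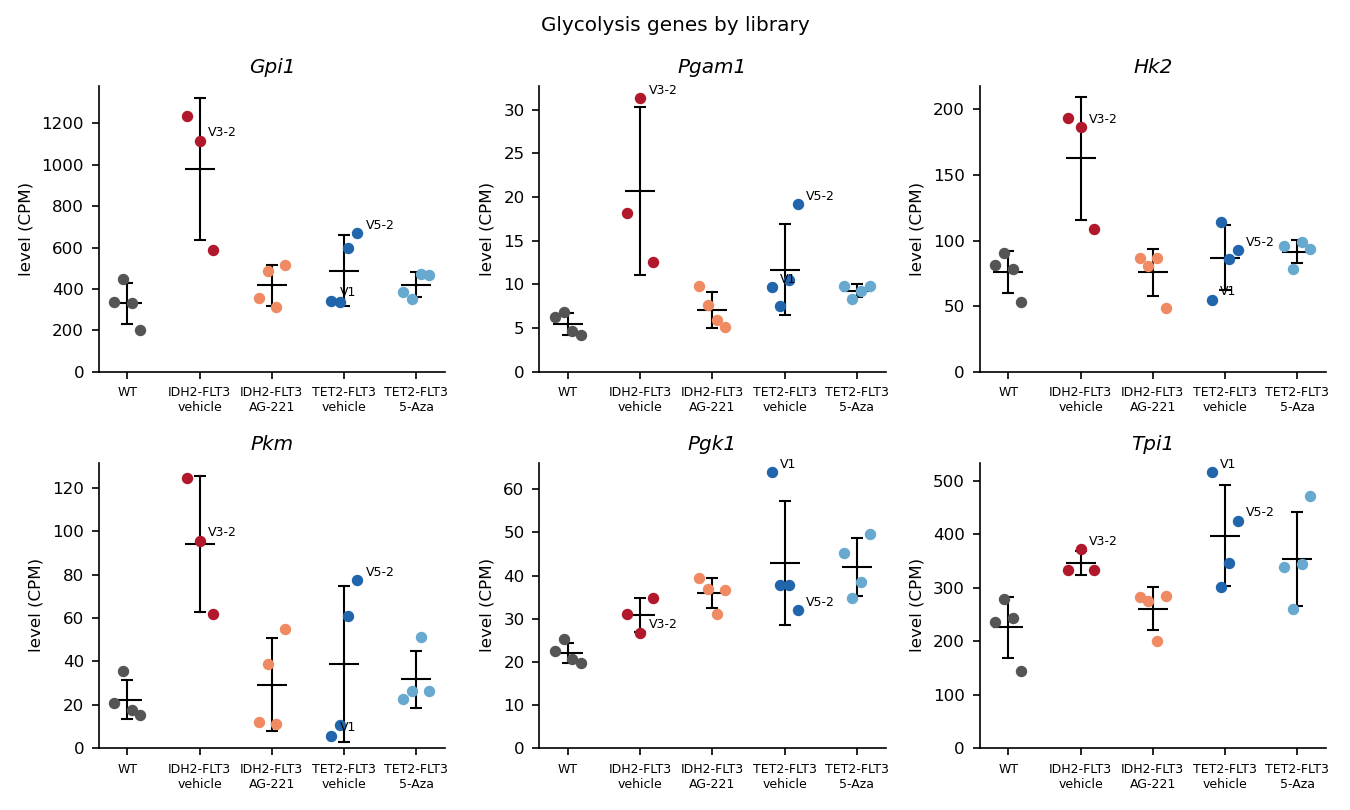
CPM (y axis) of Gpi1, Pgam1, Hk2, Pkm, Pgk1 and Tpi1 in each library (points) by group (x axis), with the group mean and SD as bars; V1, V3-2 and V5-2 are marked. The IDH2-FLT3 vehicle points of Gpi1, Pgam1, Hk2 and Pkm all lie above those of WT, and the Pgk1 points of every leukaemic group lie above WT.

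Pdk1, the kinase that keeps pyruvate out of the mitochondrial pyruvate dehydrogenase, was at 143, 109, 185 and 147 CPM in WT, 59.4, 139.9 and 106 in IDH2-FLT3 vehicle, 166, 133, 95.3 and 109 with AG-221, 259, 177, 108 and 192 in TET2-FLT3 vehicle and 155, 150.05, 125 and 163 with 5-Aza. All its groups overlapped with WT. Its difference from WT was -0.52 ± 0.31 in IDH2-FLT3 vehicle (interval -1.17 to 0.14) and 0.33 ± 0.28 in TET2-FLT3 vehicle (interval -0.27 to 0.94).

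Among the prolyl hydroxylases, Egln3 differed from WT in both vehicle groups. Egln3, itself strongly HIF-induced, was at 17.5, 15.7, 15.7 and 14.02 CPM in WT, 24.4, 112 and 32.6 in IDH2-FLT3 vehicle, 32.5, 20.6, 25.3 and 13.2 with AG-221, 87.0, 52.2, 30.2 and 129 in TET2-FLT3 vehicle and 35.3, 42.0, 32.5 and 38.4 with 5-Aza. All libraries of both vehicle groups and of the 5-Aza group lay above all WT libraries, and V3-2 and V5-2 were the highest of their groups. Egln3 was 4.75-fold higher in TET2-FLT3 vehicle than in WT (log2 fold change 2.25 ± 0.45, adjusted p = 0.00378), a call that held under every alternative and left-out library; without V1, V3-2 and V5-2 the log2 fold change was 1.399. In IDH2-FLT3 vehicle it also rose (log2 fold change 1.84 ± 0.46, adjusted p = 0.00879), but without V3-2 the log2 fold change was 0.86 and the adjusted p 0.168. With AG-221 (-1.30 ± 0.46, adjusted p = 0.0716) and with 5-Aza (-1.01 ± 0.43, adjusted p = 0.325) the differences from vehicle did not pass.

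Egln1, the main oxygen sensor of the family, was at 58.5, 82.1, 61.3 and 45.6 CPM in WT, 65.5, 120.2 and 72.0 in IDH2-FLT3 vehicle, 62.5, 53.1, 37.7 and 28.6 with AG-221, 62.0, 71.2, 62.6 and 87.4 in TET2-FLT3 vehicle and 79.4, 79.5, 71.3 and 99.3 with 5-Aza. The AG-221 libraries all lay below the vehicle libraries, while vehicle overlapped WT. Egln1 fell with AG-221 against vehicle (log2 fold change -0.92 ± 0.28, adjusted p = 0.0448), which was lost without V3, V3-2, AG12, AG13 or AG8.

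Ero1l and P4ha1 act in the endoplasmic reticulum, Ero1l (named Ero1a in newer tables) in disulfide bond formation and P4ha1 as the catalytic subunit of collagen prolyl hydroxylase. Ero1l was at 19.9, 21.7, 16.1 and 15.8 CPM in WT, 49.7, 139 and 25.4 in IDH2-FLT3 vehicle, 21.0, 26.3, 15.9 and 12.3 with AG-221, 25.6, 22.8, 21.0 and 49.8 in TET2-FLT3 vehicle and 25.2, 22.5, 22.8 and 19.3 with 5-Aza. V3-2 stood far above every other library, and V9 was below AG12. The gene rose in IDH2-FLT3 vehicle against WT (log2 fold change 1.96 ± 0.43, adjusted p = 0.0036) and fell with AG-221 against vehicle (log2 fold change -1.92 ± 0.43, adjusted p = 0.0143); without V3-2 the log2 fold changes were 1.03 (adjusted p = 0.0725) and -0.99 (adjusted p = 0.166).

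P4ha1 was at 49.9, 52.8, 45.6 and 45.9 CPM in WT, 106, 82.9 and 62.0 in IDH2-FLT3 vehicle, 55.1, 39.1, 62.1 and 48.8 with AG-221, 73.2, 80.9, 80.9 and 74.9 in TET2-FLT3 vehicle and 45.5, 51.1, 48.5 and 41.3 with 5-Aza. Both vehicle groups lay above all WT libraries, and the 5-Aza libraries all lay below their vehicle libraries. It rose in both vehicle groups against WT (IDH2-FLT3 0.78 ± 0.22, adjusted p = 0.0152; TET2-FLT3 0.67 ± 0.20, adjusted p = 0.0388) and fell with AG-221 (log2 fold change -0.71 ± 0.22, adjusted p = 0.0441). With 5-Aza the difference was -0.73 ± 0.20 (adjusted p = 0.0724). Without V1, V3-2 and V5-2 the TET2-FLT3 and AG-221 calls were lost, at adjusted p = 0.0679 and 0.0592. The TET2-FLT3 call held under 6 of 12 other settings and was also lost without any 1 WT library, V19 or V5. The AG-221 call held under 5 of 12 and was also lost without V3, V3-2, AG1, AG12 or AG8. The IDH2-FLT3 call against WT held under 7 of 12 and was lost without V3, at adjusted p = 0.111.

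Ddit4 and Ndrg1 are stress-regulated genes; Ddit4 encodes an inhibitor of the mTOR pathway. Ddit4 was at 9.57, 9.74, 7.18 and 3.06 CPM in WT, 3.71, 13.3 and 27.0 in IDH2-FLT3 vehicle, 11.2, 6.74, 25.2 and 7.93 with AG-221, 31.9, 24.4, 12.9 and 42.8 in TET2-FLT3 vehicle and 8.66, 11.9, 9.71 and 8.84 with 5-Aza. The TET2-FLT3 vehicle libraries lay above all WT and 5-Aza libraries. It rose there against WT (log2 fold change 1.92 ± 0.53, adjusted p = 0.028), with an adjusted p of 0.232 without V1, V3-2 and V5-2. This call was also lost with limma-voom, and without wt1, wt3, wt4, V1 or V5-2. The difference of Ddit4 with 5-Aza was -1.52 ± 0.53 (adjusted p = 0.192).

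Ndrg1, a hypoxia target linked to differentiation, was lower in IDH2-FLT3 vehicle than in WT. It was at 281, 311, 301 and 239 CPM in WT, 117, 154 and 143 in IDH2-FLT3 vehicle, 217, 197, 156 and 174 with AG-221, 145, 319.8, 255 and 271 in TET2-FLT3 vehicle and 268, 217, 209 and 241 with 5-Aza. The IDH2-FLT3 vehicle libraries lay below all WT and AG-221 libraries. The AG-221 libraries lay below all WT libraries, but that difference did not pass. Ndrg1 fell in IDH2-FLT3 vehicle against WT (log2 fold change -1.03 ± 0.25, adjusted p = 0.00686) under every alternative and left-out library, and its difference with AG-221 from vehicle was 0.43 ± 0.25 (adjusted p = 0.244).

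The mitophagy receptors Bnip3 and Bnip3l, the respiratory chain factor Higd1a, the HIF target Ankrd37 and the surface carbonic anhydrase Car9 passed in none of the 8 comparisons of the edgeR fit, although Bnip3, Higd1a, Ankrd37 and Car9 passed under other settings. Bnip3 averaged 23.7 ± 3.51 CPM (SD, n = 4) in WT, 23.3 ± 11.2 (n = 3) in IDH2-FLT3 vehicle and 48.4 ± 11.0 (n = 4) with AG-221, whose libraries lay above those of both other groups (against vehicle 1.06 ± 0.47, adjusted p = 0.135). In TET2-FLT3 vehicle it averaged 56.4 ± 46.6 CPM, with V1 alone at 123. Bnip3l was also highest in V1, at 356 CPM, and averaged 133 ± 13.5 CPM in WT. Higd1a and Ankrd37 gave 0.71 ± 0.32 (adjusted p = 0.14) and 1.08 ± 0.40 (adjusted p = 0.0847) with AG-221 against vehicle. On log2(FPKM + 1) Bnip3, Higd1a and Ankrd37 were called higher there (adjusted p = 0.0485, 0.0342 and 0.0341), and Ankrd37 also with DESeq2 (adjusted p = 0.0264) and limma-voom (adjusted p = 0.0292). Car9 gave -0.67 ± 0.26 (adjusted p = 0.1) in TET2-FLT3 vehicle against WT and -0.053 ± 0.28 (interval -0.65 to 0.54) in IDH2-FLT3 vehicle against WT; on log2(FPKM + 1) it was called lower in TET2-FLT3 vehicle (adjusted p = 0.0185). Bnip3 was called higher there by DESeq2 (adjusted p = 0.0348).

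**Figure D4:**
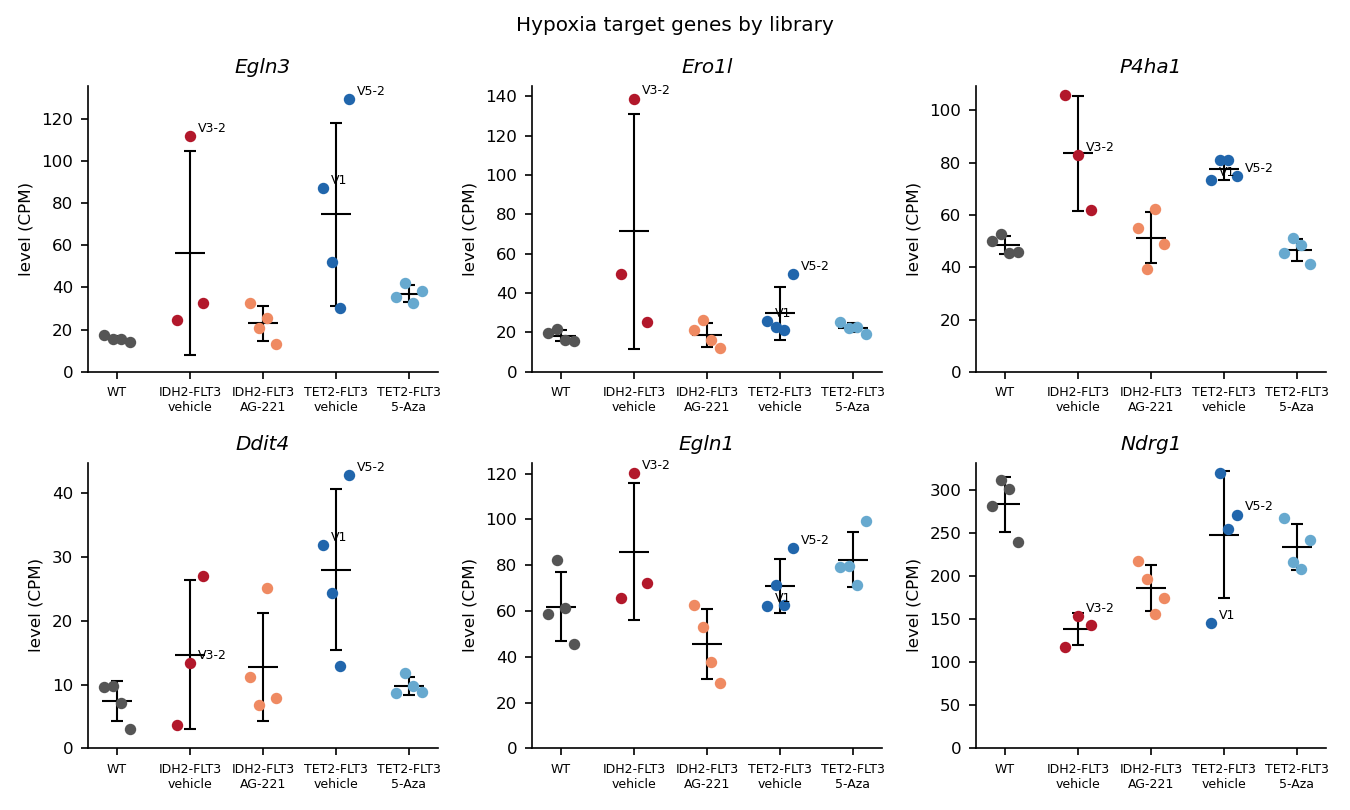
CPM (y axis) of Egln3, Ero1l, P4ha1, Ddit4, Egln1 and Ndrg1 in each library (points) by group (x axis), with the group mean and SD as bars; V1, V3-2 and V5-2 are marked. V3-2 is the highest IDH2-FLT3 vehicle library for Egln3, Ero1l and Egln1, and the Ndrg1 points of that group lie below all WT points.

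The vehicle arms of both lines were compared directly. No member passed in the edgeR fit, where 4.28% of all accessions did (1.93% higher and 2.35% lower). At an unadjusted p under 0.05 there were 8 of the 27 members, 5 of them higher in IDH2-FLT3, against 2487 of all 11830 accessions. DESeq2 called 4 members, against 1150 accessions over all, and limma-voom 1, against 192. The smallest adjusted p-values were those of Ndrg1 (-0.84 ± 0.25, adjusted p = 0.057, IDH2-FLT3 minus TET2-FLT3), Hk2 (0.90 ± 0.28, adjusted p = 0.066) and Gpi1 (1.01 ± 0.33, adjusted p = 0.0813). The libraries did not overlap for 1 of the 27, against 8.59% of all accessions. Between these groups 7 of 8 granulocyte and monocyte progenitor markers and 4 of 7 mature neutrophil markers were higher in IDH2-FLT3. Of the stem markers 2 of 7 were lower there. No erythroid, B cell or T and NK cell marker and no cell cycle gene passed. The part of these markers in the members' differences was not tested. Leaving out V5-2 gave 6 member calls and leaving out V9 gave 3. Over all accessions these fits called 1656 of 11728 and 1293 of 12413. For Egln3 the interval of the difference was -1.40 to 0.58 and for P4ha1 -0.35 to 0.57.

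The difference between the responses to both drugs was tested as an interaction. No member passed in the edgeR fit, where 0.228% of all accessions did (0.203% higher and 0.0254% lower). DESeq2 and limma-voom also called 0 members, against 364 and 92 accessions over all. At an unadjusted p under 0.05 there were 7 of 27 members, against 1831 of all 11830 accessions. The largest estimates were for Bnip3 (1.99 ± 0.63, AG-221 response minus 5-Aza response, adjusted p = 0.162), Ero1l (-1.50 ± 0.58, adjusted p = 0.233) and Ankrd37 (1.49 ± 0.54, adjusted p = 0.206). Without V9 there were 3 member calls, against 644 of 12413 accessions. Without V5-2 there was 1, against 229 of 11728. The drugs were given to different lines at their own schedules.

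The pentose phosphate pathway, which branches from glucose-6-phosphate and yields NADPH and ribose, was measured with 8 of 8 listed genes. In IDH2-FLT3 vehicle against WT 5 rose and none fell (62.5%, against 20.5% of all accessions called), with a median log2 fold change of 1.39. In TET2-FLT3 vehicle 1 rose (12.5%, against 10.1%), Prps1 (log2 fold change 0.997 ± 0.30, adjusted p = 0.0399), and with AG-221 2 fell (25.0%, against 9.68%). With 5-Aza none passed. Without V1, V3-2 and V5-2 the counts of the first 3 comparisons were 5, 0 and 2, where 2449, 440 and 716 of 12044 accessions were called. Leaving out V3 gave 3 in the first and 0 in the third, where 1261 and 97 of 12399 accessions were called. Leaving out any 1 WT library or V1 gave 0 in the second. Over all accessions the fits without wt1, wt2, wt3, wt4 and V1 called 638 of 11748, 857 of 11765, 563 of 11755, 503 of 11715 and 866 of 11810. The main fit called 1199 of 11830. G6pdx, the entry enzyme, was at 80.9, 96.0, 68.8 and 42.5 CPM in WT, 423, 411 and 147 in IDH2-FLT3 vehicle, 96.5, 127, 74.9 and 88.5 with AG-221, 89.6, 105, 164 and 182 in TET2-FLT3 vehicle and 113, 104, 102 and 121 with 5-Aza. V3 and V3-2 were far above all other libraries, and V9 lay above all WT and AG-221 libraries but below V5 and V5-2. G6pdx rose in IDH2-FLT3 vehicle against WT (log2 fold change 2.18 ± 0.34, adjusted p = 0.00032), fell with AG-221 (log2 fold change -1.76 ± 0.34, adjusted p = 0.00749) and was higher than in TET2-FLT3 vehicle (log2 fold change 1.28 ± 0.34, adjusted p = 0.0343). Pgd, the next NADPH-yielding enzyme, gave 2.03 ± 0.36, -1.66 ± 0.36 and 1.56 ± 0.36 in the same 3 comparisons (adjusted p = 0.000783, 0.0124 and 0.0151). Tkt (1.57 ± 0.40, adjusted p = 0.00995) and Rpe (1.22 ± 0.33, adjusted p = 0.015), of the branch that returns sugars to glycolysis, also rose against WT. The calls of G6pdx, Pgd and Tkt against WT held under every alternative and left-out library; those of G6pdx and Pgd against TET2-FLT3 vehicle were lost without V3 or V3-2.

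Of 20 further glycolysis-related genes 10 could be tested; 3 rose in IDH2-FLT3 vehicle (30.0%, against 20.5% of all accessions called), 1 rose in TET2-FLT3 vehicle and 1 fell with AG-221 (each 10.0%, against 10.1% and 9.68%). Tigar, a phosphatase that lowers the activator of phosphofructokinase, was at 9.27, 9.66, 4.62 and 3.95 CPM in WT, 42.5, 38.7 and 16.8 in IDH2-FLT3 vehicle, 8.66, 9.43, 9.67 and 14.3 with AG-221, 23.7, 15.5, 20.1 and 18.9 in TET2-FLT3 vehicle and 11.1, 10.8, 10.5 and 12.2 with 5-Aza. Both vehicle groups lay above all WT libraries and each above its treated libraries. Tigar rose in IDH2-FLT3 vehicle (log2 fold change 2.25 ± 0.37, adjusted p = 0.00045) and TET2-FLT3 vehicle (log2 fold change 1.504 ± 0.34, adjusted p = 0.01) against WT and fell with AG-221 (log2 fold change -1.63 ± 0.36, adjusted p = 0.0142); the TET2-FLT3 call was lost without V1, V3-2 and V5-2, and the AG-221 call without V3 or V3-2. Adpgk, an ADP-dependent glucokinase, also rose in IDH2-FLT3 vehicle (log2 fold change 1.38 ± 0.44, adjusted p = 0.0318), at 102, 294 and 58.0 CPM against 61.4, 70.2, 43.5 and 57.0 in WT. V9 lay within the WT libraries, and without V3-2 the log2 fold change of Adpgk was 0.46 (adjusted p = 0.466). Slc2a6 also rose there, a transporter at 0.0806 to 0.755 CPM in WT and 4.55, 3.89 and 2.49 in IDH2-FLT3 vehicle (adjusted p = 0.0369). Of the pyruvate dehydrogenase list, 10 of 12 genes were tested. In IDH2-FLT3 vehicle 3 subunits of the complex rose (30.0%, against 20.5% of all accessions called). They were Pdha1 (1.29 ± 0.29, adjusted p = 0.00478), Dld (0.94 ± 0.26, adjusted p = 0.0147) and Pdhx (0.84 ± 0.27, adjusted p = 0.0347). With AG-221 1 gene fell (10.0%, against 9.68% of all accessions), Pdha1 (log2 fold change -1.09 ± 0.29, adjusted p = 0.0278).

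Of 13 regulators of HIF tested, none passed in IDH2-FLT3 vehicle against WT in the edgeR fit, where 20.5% of all accessions did. Of the 13, 1 had an unadjusted p under 0.05, against 4115 of all 11830 accessions. DESeq2 and limma-voom called 0 of them, against 3011 and 3449 accessions over all. In TET2-FLT3 vehicle 2 rose (15.4%, against 10.1% of all accessions): Vhl (log2 fold change 1.07 ± 0.29, adjusted p = 0.0255), which targets HIF alpha subunits for destruction, and Cited2 (log2 fold change 1.53 ± 0.41, adjusted p = 0.0248), which competes for a HIF coactivator. Vhl was at 32.9, 35.9, 37.5 and 38.0 CPM in WT and 109.8, 57.0, 56.0 and 81.0 in TET2-FLT3 vehicle, with V1 and V5-2 the highest; both calls were lost when any 1 WT library, V1, or V1, V3-2 and V5-2 together were left out. Hif1a averaged 72.6 ± 9.18 CPM (SD, n = 4) in WT and 98.3 ± 26.5 (n = 3) in IDH2-FLT3 vehicle, with an interval of -0.085 to 0.96 for the log2 fold change.

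Of 22 further hypoxia targets 17 were tested. In IDH2-FLT3 vehicle 6 rose and 1 fell (41.2%, against 20.5% of all accessions called), and in TET2-FLT3 vehicle 3 rose and 1 fell (23.5%, against 10.1%). With AG-221 5 fell (29.4%, against 9.68%) and with 5-Aza 1 fell (5.88%, against 1.88%). Without V1, V3-2 and V5-2, 6 rose in IDH2-FLT3 vehicle, 2 rose in TET2-FLT3 vehicle and 3 fell with AG-221. Over all 12044 accessions of that fit, 1279 rose, 218 rose and 420 fell in the same comparisons. Without V3 or V3-2 none fell with AG-221, where 64 and 67 accessions over all did. Bhlhe40, a transcriptional repressor, was at 8.73, 7.47, 6.69 and 7.09 CPM in WT, 37.0, 22.4 and 48.3 in IDH2-FLT3 vehicle, 32.8, 42.5, 43.6 and 57.2 with AG-221, 40.1, 54.5, 73.3 and 54.8 in TET2-FLT3 vehicle and 17.6, 32.4, 25.9 and 21.8 with 5-Aza. All leukaemic libraries lay above all WT libraries, and the 5-Aza libraries below their vehicle libraries. It rose against WT in IDH2-FLT3 vehicle (log2 fold change 2.26 ± 0.30, adjusted p = 9.29e-05), TET2-FLT3 vehicle (log2 fold change 2.89 ± 0.30, adjusted p = 8.64e-06), AG-221 (log2 fold change 2.55 ± 0.29, adjusted p = 3.43e-05) and 5-Aza (log2 fold change 1.70 ± 0.28, adjusted p = 0.00254), and fell with 5-Aza against vehicle (log2 fold change -1.19 ± 0.28, adjusted p = 0.0275). The calls against WT held under every alternative and left-out library, and the fall with 5-Aza was lost without V5, AZ10, AZ16 or AZ17.

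Anxa2, a membrane-binding annexin, rose in IDH2-FLT3 (log2 fold change 2.36 ± 0.34, adjusted p = 0.000189) and TET2-FLT3 vehicle (log2 fold change 1.61 ± 0.32, adjusted p = 0.00426) and fell with AG-221 (log2 fold change -1.21 ± 0.34, adjusted p = 0.0325). Narf also rose in IDH2-FLT3 vehicle (log2 fold change 1.002 ± 0.21, adjusted p = 0.00311) and fell with AG-221 (log2 fold change -0.89 ± 0.21, adjusted p = 0.02), and with AG-221 so did Plin2, of lipid droplets (-1.30 ± 0.37, adjusted p = 0.0356), and the transferrin receptor Tfrc (-0.83 ± 0.24, adjusted p = 0.0369). Stc2, a secreted glycoprotein, was at 0.306, 0.604, 0 and 0 CPM in WT, 6.75, 9.09 and 5.93 in IDH2-FLT3 vehicle, 5.03, 1.60, 4.40 and 5.39 with AG-221 and 0.136, 1.73, 0.270 and 0.861 in TET2-FLT3 vehicle. It was higher in IDH2-FLT3 vehicle than in WT (adjusted p = 0.00125) and than in TET2-FLT3 vehicle (adjusted p = 0.0302); no fold is given, since WT held few or no reads. In TET2-FLT3 vehicle the chemokine receptor Cxcr4 rose (log2 fold change 1.91 ± 0.56, adjusted p = 0.0358), and the haem oxygenase Hmox1 fell (log2 fold change -2.71 ± 0.72, adjusted p = 0.0225). Hmox1 was at 15.4, 9.06, 28.4 and 62.1 CPM in WT and 6.14, 3.65, 4.93 and 2.95 in TET2-FLT3 vehicle, and without wt4, the highest, its log2 fold change was -1.93 (adjusted p = 0.121). Cxcr4 was at 152, 129, 165 and 122 CPM in WT and 1325, 414, 118 and 284 in TET2-FLT3 vehicle, with V1 the highest, and its call was lost without V1.

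**Figure D5:**
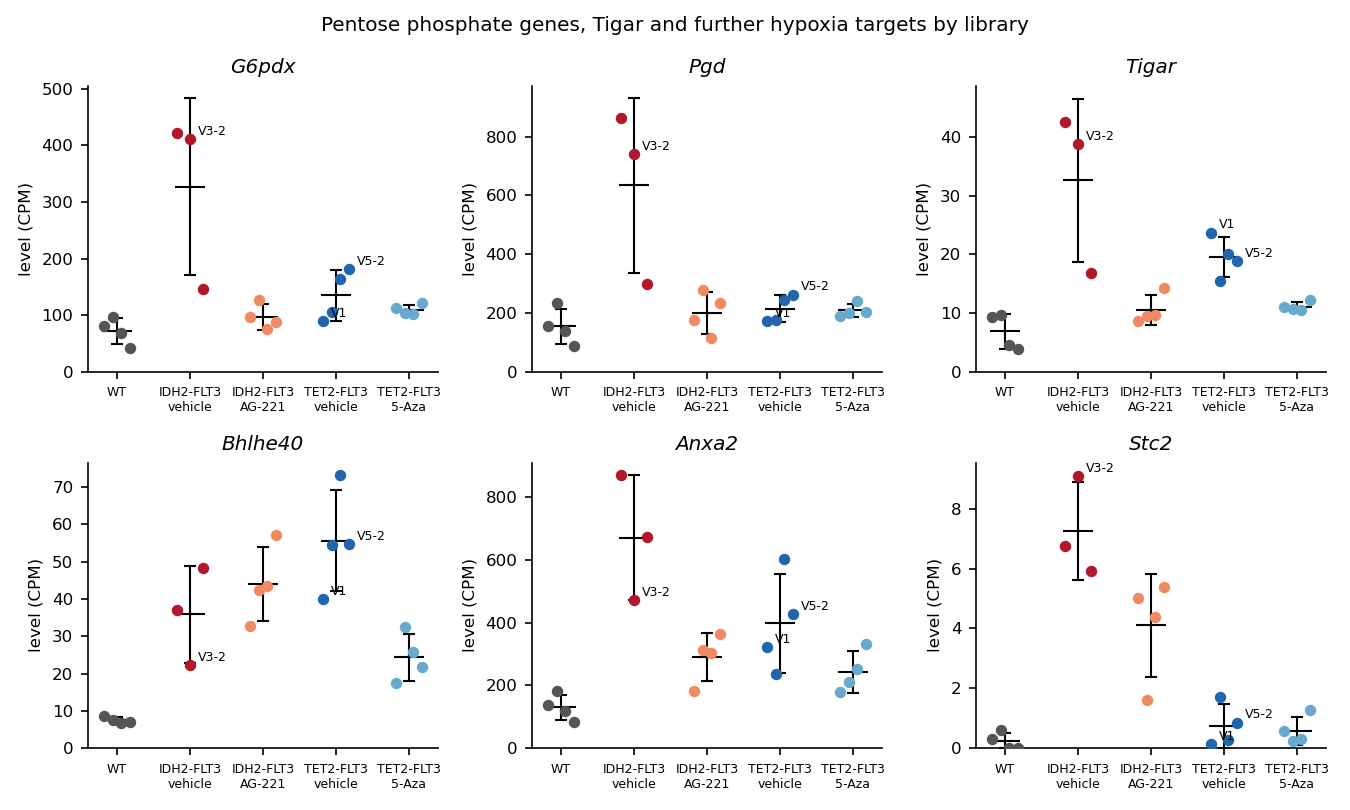
CPM (y axis) of G6pdx, Pgd, Tigar, Bhlhe40, Anxa2 and Stc2 in each library (points) by group (x axis), with the group mean and SD as bars; V1, V3-2 and V5-2 are marked. V3 and V3-2 are the highest points for G6pdx, Pgd and Tigar, and all leukaemic points of Bhlhe40 lie above those of WT.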

How the data were processed

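RNA from 19 LSK libraries was sequenced by the authors from SMARTer ultra low input poly(A) libraries. Per the submitters' processing notes, STAR 2.4.0f1 and Subread 1.4.5-p1 were used with build mm9; the annotation, read assignment and strand settings are not given in the sources used here. The authors deposited counts per RefSeq accession (unit count) and, in a second table, FPKM values of the same libraries. Columns of the wild type group were matched to samples by their number; the others carry names that show only the group, and each was used as a replicate of it. The 33862 accessions were named from the RefSeq gene table (33485) or GENCODE (188); 189 stayed unnamed and held 3.47% of the counts.

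From the counts, 11830 accessions passed edgeR's filterByExpr and were fitted with a quasi-likelihood model of all 5 groups (edgeR 4.0.16, R 4.3.3, TMM factors 0.761 to 1.22, 14 residual degrees of freedom, common dispersion 0.184), with 8 contrasts and Benjamini-Hochberg adjustment over all accessions tested. A gene was called at an adjusted p under 0.05. CPM are counts divided by the library total and the TMM factor and multiplied by 1000000, and errors of log2 fold changes are standard errors with 95% intervals. FPKM was used for levels between genes and as an alternative scale, log2(FPKM + 1) or log2(FPKM + 0.1) in limma 3.58.1. DESeq2 1.42.0, limma-voom with quality weights, other factors and filters, a fit of the compared groups alone, summed accessions, V3 with V3-2 and V5 with V5-2 summed, and leaving out each library were the other alternatives. The fit was also run on simulated counts drawn independently for each library. These held no effect shared between libraries, so that run does not speak to such effects.

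The members and lists were chosen with earlier results of these data known. Named are all 34 members, with the value in every library for those called in any comparison and for Slc2a1, Hk1, Hk2, Pfkl, Pkm, Ldha, Pdk1, Vegfa and Egln3, and, of each pathway list, up to 4 called genes with the smallest p per comparison of a line with WT or of a drug with vehicle. No pair of libraries was alike enough to be 1 library deposited more than once. Totals of 9635795 to 20383132 counts leave genes of few reads imprecise.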

Additional observations from a re-analysis of the deposited data

Results flagged for a closer look

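In groups of 4 libraries, 108 sets of values of the members tested were searched for a single library whose gap to the nearest other exceeded Dixon's 95% critical value relative to the whole range, and 9 were found. Chance gives such a gap in about 1 of 20 groups. In the AG-221 group, AG8 was lowest for Hk2 at 49.0 CPM (nearest 81.0), highest for Ldha at 1.15 CPM (the others at 0) and highest for Car9 at 48.1 CPM (nearest 31.1), and AG13 was lowest for Tpi1 at 200.8 CPM (nearest 275). In TET2-FLT3 vehicle, V1 was highest for Bnip3l at 356 CPM (nearest 129), V5 was highest for Car9 at 36.0 CPM (nearest 23.6), V5-2 was highest for Ero1l at 49.8 CPM (nearest 25.6), and V19 was lowest for Ldha at 0 CPM (nearest 0.533). With 5-Aza, AZ16 was highest for Pkm at 51.4 CPM (nearest 26.6).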

How the results depend on the processing

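No paired analysis was possible because the columns of the groups other than WT carry no replicate number from the labels. Library totals alone, and leaving out V1, V3-2 and V5-2 together, were added after seeing the data. No call of a member changed direction under any alternative. The number of members called in IDH2-FLT3 vehicle against WT (10) was 5 on log2(FPKM + 1) and 4 on log2(FPKM + 0.1). It was 6 with V3 and V3-2 and V5 and V5-2 summed, 6 with library totals, and 5 to 9 with 1 library left out. Over all accessions these settings called 2713, 2609, 1599, 2256 and 1261 to 2778, against 2428 in the main fit. For TET2-FLT3 vehicle against WT (5) it was 2 with only the compared groups, 3 with limma-voom and 2 without V1, V3-2 and V5-2. With 1 library left out it was 1 to 6. Over all accessions these settings called 848, 860, 440 and 503 to 1410, against 1199 in the main fit. For AG-221 against vehicle (6) it was 0 with only the compared groups, 1 with the pairs summed and 3 with library totals. It was 1 without V1, V3-2 and V5-2, and 0 to 8 with 1 library left out. Over all accessions these settings called 0, 197, 950, 716 and 97 to 2252, against 1145 in the main fit. For 5-Aza against vehicle (0) it was 1 with the stricter filter (5 CPM in 3 libraries) and 1 with DESeq2, and 0 with any library left out. Over all accessions these settings called 195 of 8923, 462 of 11830 and 57 to 241, against 222 of 11830 in the main fit. For AG-221 against WT (0) it was 2 with only the compared groups, 5 with limma-voom and 3 without V1, V3-2 and V5-2. With any library left out it was 0. Over all accessions these settings called 823 of 10768, 2131 of 11830, 663 of 12044 and 170 to 289, against 321 of 11830 in the main fit. For 5-Aza against WT (1, with 203 accessions over all) it was 0 with RLE factors, no filter, the stricter filter or library totals. These settings called 207, 265, 156 and 306 accessions over all. It was 2 with only the compared groups, the pairs summed or without V1, V3-2 and V5-2 (2157, 294 and 773 over all). With limma-voom it was 4 (2755 over all), and with any library left out 0 (73 to 139 over all). For the vehicle arms (0, with 506 accessions over all) it was 1 with RLE factors, the stricter filter, limma-voom or without V1, V3-2 and V5-2. These settings called 548, 475, 192 and 45 accessions over all. With DESeq2 it was 4 (1150 over all), and with 1 library left out 0 to 6 (114 to 1656 over all). The difference of the drug responses (0) gave 0 to 3 with 1 library left out. Over all accessions those fits called 0 to 644, against 27 in the main fit. In each case the cause was not tested. Left-out libraries leave fewer samples, but some counts rose when a library was left out. Without V9, accessions called for AG-221 against vehicle rose from 1145 to 2252. Without V5-2, those called for the vehicle arms rose from 506 to 1656. Of the 22 member calls, 22 held with DESeq2 and with summed accessions, 21 with RLE factors and 21 with the stricter filter. Levels of genes with several accessions, and of genes with few reads, are limited by counting.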

Other observations

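A set of 79 accessions was counted at 1 CPM or more in both V3-2 and V5-2 and below 0.5 CPM in each of the other 17 libraries. Of these, 72 belong to genes with several accessions. Eno1, the enolase of glycolysis, was at 1.83 CPM in V3-2 and 1.72 in V5-2, and Mxi1, a hypoxia target and MAX-binding repressor, at 1.54 and 1.52 CPM, while elsewhere Eno1 reached at most 0.203 CPM and Mxi1 at most 0.160 CPM.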
